A study of Oryza sativa Japonica Group with 36 samples.

Results

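Protein phosphatases 2C are a large phosphatase family of rice (Oryza sativa), and 60 genes of the RefSeq gene table carry a name of PP2C plus a number. Of these, 55 had a probe set of their own on the Affymetrix rice genome array, among 17905 genes that did, and they held 72 of the 57258 probe sets tested. Each gene was taken at its brightest probe set by mean log2 intensity. OsPP2C41, OsPP2C49, OsPP2C50, OsPP2C65 and OsPP2C77 had none and are not analysed here.

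These enzymes remove phosphate from serine and threonine residues and need magnesium or manganese. Those of group A hold SnRK2 kinases (named SAPK in rice) inactive until abscisic acid (ABA) and its PYL receptors bind the phosphatase, so that they act as brakes on ABA signalling. Others act on MAP kinases or on receptor kinases. OsPP2C27 is known in rice as an enzyme that dephosphorylates OsMAPK3 and OsbHLH002 and lowers cold tolerance, and OsPP2C35 is XB15, which acts on the immune receptor XA21.

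Whole shoots of seedlings at the 3-leaf stage were measured on 36 arrays, in 12 groups of 3. C418 is a cold-sensitive japonica restorer line, and K354 is a cold-tolerant introgression line bred from it by backcrossing with the indica variety Bg300 as donor, so that K354 is 1 line with its own set of donor segments. Each line had a control at 25 °C and groups held at 4 °C for 2, 6, 12, 24 or 48 h. Control shoots of 2 h and 24 h were pooled by the authors, so the time of day is not matched to each cold group, and the 5 cold comparisons of a line share its 3 control arrays. Values are linear intensities, changes are log2 differences with the standard error (SE) of the fit, and p-values come from limma, adjusted by the Benjamini-Hochberg method over all tested probe sets. A gene was called at an adjusted p under 0.05, and a size of 5-fold is the rule of the study. Arrays of a whole shoot cannot tell fewer cells of a type from less RNA per cell.

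Arrays of 1 group correlated at 0.979 to 0.996 and those of different groups at 0.879 to 0.992, and array medians lay between 55.5 and 67.9. Of 7 shoot markers (genes of light harvesting, photosystem I, Rubisco and its activase), 6 lay above the array median on all 36 arrays and the probe set of RBCS1 was dim, while 1 of 5 root markers lay above it on all arrays. The summed shoot markers were 66536 to 67550 in the C418 control and 31620 to 43537 at 48 h, and 66817 to 67021 in the K354 control and 51672 to 54938 at 48 h. The summed root markers were 1193 to 3189 and 858 to 2072 in C418, and 636 to 2949 and 523 to 809 in K354. Their part in the results below was not tested.

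Intensity depends on the probes as well as on the transcript, so it does not rank genes by transcript level. On all 36 arrays 47 of 55 lay above the median of the array, and none lay below its 25th percentile throughout. That median is over all tested probe sets, and genes taken at their brightest probe set mostly lie above it. Taken that way, the median intensity was 314.2 over all genes and 586.5 over the members. The probe sets of OsPP2C10, known as OsPP18, and OsPP2C14 had the highest means, 4091 and 2820. Those of OsPP2C31 and OsPP2C69 had the lowest, 26.0 and 38.7.

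At 48 h in the cold more members had risen than fallen in both lines on the deposited scale, whereas at 2 h the numbers were close. In C418, 13 members rose and 10 fell at 2 h, where 10.1% of all genes rose and 26.4% fell. At 48 h, 30 rose and 14 fell, where 29.9% of all genes rose and 41.3% fell. The median change of the members in C418 at 48 h was 0.40 on the log2 scale, against -0.11 over all genes.

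Counts in K354 were of similar size. At 2 h, 10 members rose and 12 fell, where 9.07% of all genes rose and 26.4% fell. At 48 h, 33 rose and 14 fell, where 29.3% of all genes rose and 37.9% fell, with a median of 0.42 for the members and -0.07 for all genes. At 48 h, 29 members had risen in both lines, 13 had fallen in both, and 0 had calls in opposite directions. The matching counts over both lines were not made for all genes, so this agreement cannot be read as a trait of the family.

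The counts between these times were as follows. Called members in C418 numbered 27 at 6 h (35.4% of all genes), 33 at 12 h (45.8%) and 37 at 24 h (60.4%). In K354 they numbered 27 at 6 h (35.7%), 36 at 12 h (47.7%) and 35 at 24 h (61.8%). The change was largest at 48 h for 39 members in C418 and for 32 in K354.

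The split depends on the scale at every time. At 2 h the median change of all probe sets as deposited was -0.13 (C418) and -0.12 (K354). Quantile normalization then gave 21 members up and 6 down in C418 and 17 up and 9 down in K354, and centring each array on its median gave 22 and 4 in C418 and 16 and 10 in K354. At 48 h the array's hybridization controls exceeded their level in the line's control by 0.81 (C418) and 0.67 (K354), and the poly-A controls by 1.30 (C418) and 1.20 (K354). Scaled to the hybridization controls, 16 members rose and 29 fell in C418 and 17 rose and 25 fell in K354. Scaled to the poly-A controls, 11 rose and 37 fell in each line. The same scales turned the split at earlier times as well, with 16 up and 27 down in C418 at 24 h and 14 up and 27 down in K354 at 12 h on the hybridization controls, and 10 up and 26 down in C418 at 6 h on the poly-A controls. Changes are therefore relative to the deposited scale, on which the median of all probe sets at 48 h moved by -0.02 in C418 and -0.03 in K354.

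**Figure D1:**
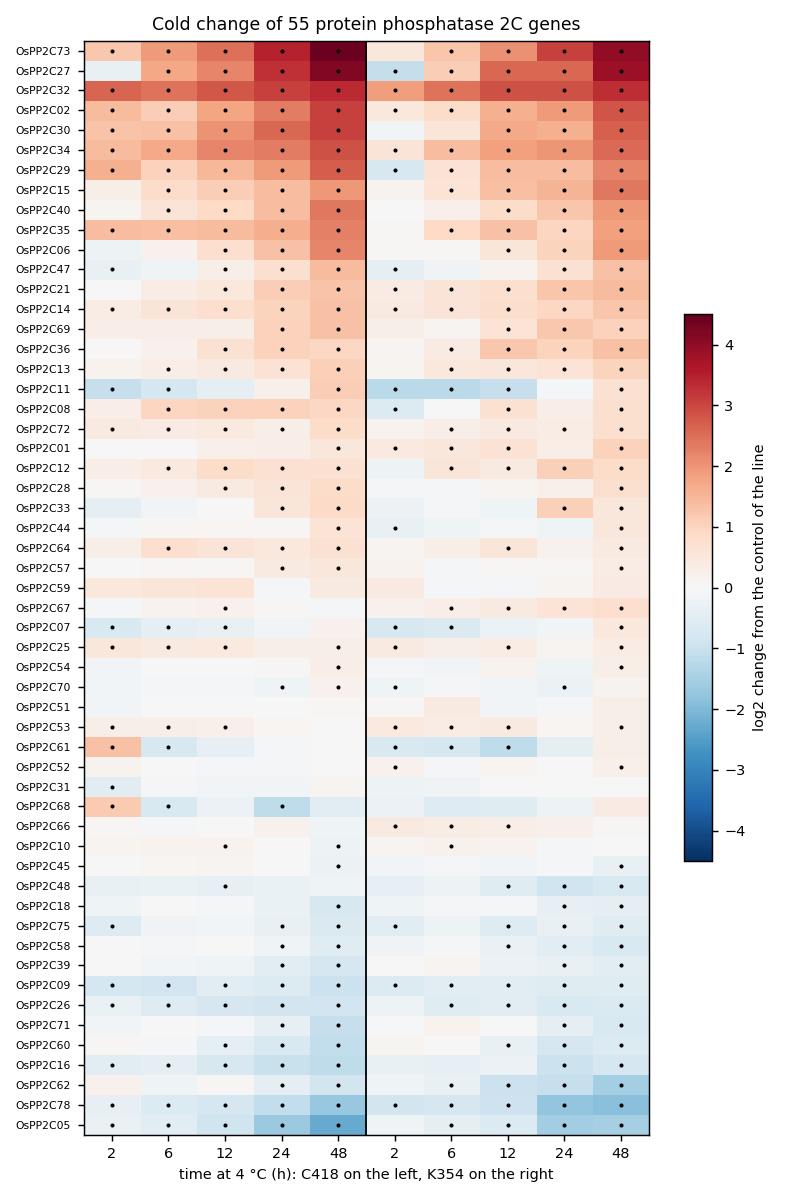
Log2 change from the control of the line (colour) for the 55 members (rows, ordered by the mean 48 h change of both lines) at 5 times at 4 °C in C418 and K354 (columns), with a dot where the adjusted p was under 0.05. The red block at the top holds OsPP2C73, OsPP2C27 and OsPP2C32, and OsPP2C05, OsPP2C78 and OsPP2C62 are at the bottom.

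At 48 h, 8 members in C418 and 7 in K354 had risen by more than 5-fold, sizes that 4.56% and 3.61% of all genes passed. They were OsPP2C02, OsPP2C27, OsPP2C30, OsPP2C32, OsPP2C34 and OsPP2C73 in both lines, with OsPP2C29 and OsPP2C40 in C418 and OsPP2C15 in K354. No member fell by 5-fold in either line.

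OsPP2C73 rose most. Its intensity was 78.7, 70.5 and 66.2 in the C418 control and 1625, 1447 and 1508 at 48 h. The K354 arrays read 77.7, 73.2 and 68.9 in the control and 1264, 1141 and 1069 at 48 h. The groups did not overlap in either line, and the change was 4.41 (SE 0.19, adjusted p = 2.91e-17) in C418 and 3.98 (SE 0.19, adjusted p = 3.93e-16) in K354. Its brightest probe set is of a type that can also take up a related transcript, and of its 3 other probe sets 2 rose alike, by 4.34 and 3.94 in C418, while the last and dimmest gave -0.46 (adjusted p = 0.0332).

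OsPP2C27, the phosphatase of OsMAPK3, rose from 6 h on in both lines. Its intensity in the C418 control was 173, 174 and 179, and at 2 h it was 114, 130 and 176. At 48 h it was 2828, 3077 and 3459. The 2 h and control arrays overlapped in C418, with a change of -0.35 (SE 0.25, adjusted p = 0.315), whereas the 48 h arrays stood apart, with 4.15 (SE 0.25, adjusted p = 2.65e-14).

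In K354, OsPP2C27 was 237, 215 and 269 in the control and 114, 112 and 113 at 2 h, a fall of 1.08 on the log2 scale (SE 0.25, adjusted p = 0.00201). At 48 h it was 3563, 3434 and 3269, a rise of 3.84 (SE 0.25, adjusted p = 2.14e-13). The responses of the lines did not pass the test for a difference at any time (interaction of -0.73, SE 0.36, adjusted p = 0.545 at 2 h).

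OsPP2C32 was the only member past 5-fold at 2 h, in C418. Its intensity was 421, 521 and 577 in the C418 control and 2461, 3230 and 3632 at 2 h. The K354 arrays gave 530, 587 and 643 in the control and 1790, 2321 and 2335 at 2 h. Each line's 2 h arrays lay above its controls, with changes of 2.61 (SE 0.13, adjusted p = 7.52e-15) and 1.87 (SE 0.13, adjusted p = 1.12e-11), and by 48 h the changes were 3.35 and 3.33.

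OsPP2C02, OsPP2C14, OsPP2C32 and OsPP2C34 rose at all 5 times in both lines. OsPP2C34 is BIPP2C2, a gene known from rice treated with benzothiadiazole or infected with blast. At 48 h it had risen by 2.85 (SE 0.11) in C418 and 2.54 (SE 0.11) in K354. OsPP2C02 rose by 3.09 (SE 0.16) and 2.82 (SE 0.16). OsPP2C14 rose by 1.31 (SE 0.08) and 1.25 (SE 0.08), and its call in K354 at 2 h was lost when its probe sets were averaged.

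OsPP2C40, known as OsPP65, and OsPP2C15 were close to the 5-fold line. OsPP2C40 rose by 2.37 in C418 and 1.95 in K354 at 48 h (SE 0.09), and OsPP2C15 by 1.95 and 2.38 (SE 0.13). The interactions of both missed the threshold at 48 h, at -0.42 (adjusted p = 0.0517) and 0.44 (adjusted p = 0.165), so a place on one side of 5-fold in 1 line is not a difference between the lines.

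**Figure D2:**
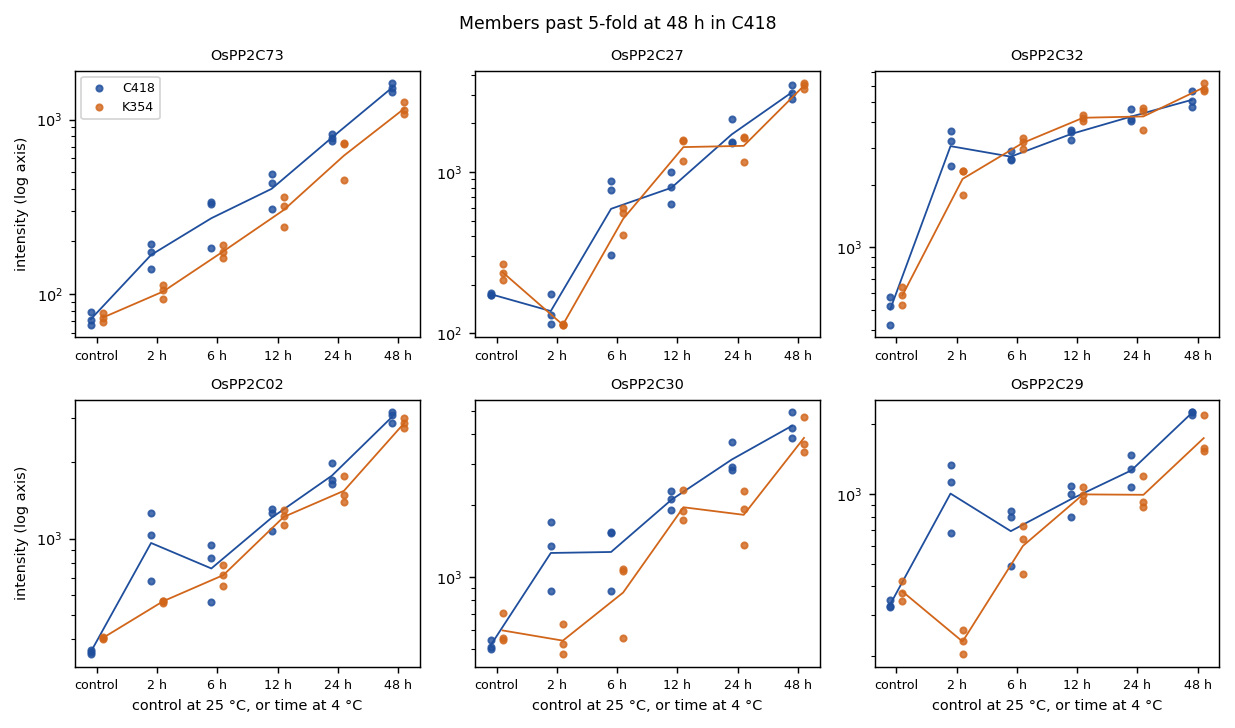
Intensity (log axis) of 6 members on each array (points) in the control and at each time at 4 °C, with lines through the group means of the logs for C418 (blue) and K354 (orange). At 48 h every array of either line lies above all controls of its line in each panel. At 2 h the arrays are separated by line in every panel except that of OsPP2C27.

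By the mean of both lines at 48 h, OsPP2C05, OsPP2C78 and OsPP2C62 fell most, OsPP2C62 through K354. OsPP2C05 was 2270, 2265 and 2118 in the C418 control and 418.2, 435 and 524 at 48 h. In K354 it was 2300, 2166 and 2035 in the control and 871, 794 and 682 at 48 h. No 48 h array reached a control, and the changes were -2.28 (SE 0.11, adjusted p = 1.09e-16) in C418 and -1.48 (SE 0.11, adjusted p = 1.79e-12) in K354.

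OsPP2C78 fell at all 5 times in both lines, as OsPP2C09 did. OsPP2C78 was 155, 132 and 124 in the C418 control and 43.1, 39.7 and 42.0 at 48 h, a change of -1.72 (SE 0.14, adjusted p = 8.08e-12). In K354 it changed by -1.89 (SE 0.14, adjusted p = 1.45e-12). OsPP2C51 and OsPP2C59 were called at no time in either line, and OsPP2C52, OsPP2C10 and OsPP2C70 had the smallest range of change, staying within 0.22, 0.23 and 0.26 of their controls.

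Of the group A genes listed here, 7 were measured, and they did not move as 1 block. At 48 h, 3 rose and 1 fell in C418, and 4 rose and 1 fell in K354. Of all genes 71.2% were called in C418 and 67.2% in K354 at that time. The medians of the 7 were 0.08 and 0.38.

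OsPP2C30, a group A enzyme that interacts with SAPK2, rose most among them. It was 507, 543 and 497 in the C418 control and 3851, 4238 and 4943 at 48 h, a change of 3.07 (SE 0.25, adjusted p = 1.12e-11). In K354 it was 553, 545 and 704 in the control and 3361, 3609 and 4686 at 48 h, a change of 2.69 (SE 0.25, adjusted p = 2.32e-10). OsPP2C06, known as OsABIL1, was next, with 2.19 (SE 0.14) in C418 and 1.90 (SE 0.14) in K354.

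OsPP2C08 rose by 0.93 (SE 0.15) in C418 and 0.73 (SE 0.15) in K354 at 48 h, and was below its control in both lines when scaled to the poly-A controls. OsPP2C53, known as OsABIL2, gave -0.02 (adjusted p = 0.854) in C418 and rose by 0.28 (SE 0.08, adjusted p = 0.00327) in K354, a rise that turned into a fall on both control scales. OsPP2C09 was the group A member that fell, by 0.96 (SE 0.16) and 0.54 (SE 0.16). OsPP2C51, which promotes seed germination, gave 0.08 (adjusted p = 0.718) and 0.27 (adjusted p = 0.172), and OsPP2C68, known as OsPP108, gave -0.47 (adjusted p = 0.112) and 0.38 (adjusted p = 0.209).

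Partners of group A were read beside them. Of 10 SnRK2 kinases, 8 rose and 1 fell in C418 at 48 h, and 6 rose and 1 fell in K354. For this list and those below, the shares of all genes at 48 h were 29.9% up and 41.3% down in C418 and 29.3% up and 37.9% down in K354. OsSAPK2 rose by 2.20 (SE 0.17, adjusted p = 6.09e-12) and 2.23 (SE 0.17, adjusted p = 6.55e-12), and OsSAPK9 by 2.18 and 2.83. The ABA receptor OsPYL11, the only gene of its list, rose by 0.96 and 1.08. ABA8OX1, an enzyme that breaks down ABA, rose by 5.14 (adjusted p = 1.97e-20) and 3.77 (adjusted p = 1.88e-17), while ABA8OX2 fell by 0.51 and 1.35.

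ABA1, the zeaxanthin epoxidase of ABA synthesis, fell by 1.27 and 0.78. The ABA-responsive factors ABF2 and TRAB1 both rose in both lines. Of 15 MAP kinases, 8 rose and 4 fell in C418, and 9 rose and 4 fell in K354. MPK5, also named OsMPK3, rose by 2.89 and 2.78. Of 6 dehydrin and LEA genes, 1 rose and 1 fell in C418, and 1 rose in K354.

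On the deposited scale, the cold responses of members differed between the lines most often at 2 h. The difference of the cold responses, K354 minus C418, was called for 9 members at 2 h, all below 0, a direction in which 2.35% of all genes were called. The median difference was -0.04 over the 55 members and 0.01 over all genes. The count was 5 without replicate 3 of the K354 control, 5 without replicate 2 of C418 at 2 h and 4 without replicate 3 of C418 at 2 h, and 3 on the scale of the poly-A controls. Scaled to the hybridization controls, 0 members were called above 0 and 9 below at 2 h, against 8 and 1 at 48 h. The time with the most calls therefore depends on the scale. With 1 of 12 arrays left out at a time, the calls of OsPP2C29, OsPP2C34, OsPP2C35 and OsPP2C61 held each time, while that of OsPP2C08 was lost for 3 arrays, of OsPP2C02 for 5, of OsPP2C32 and OsPP2C68 for 6 and of OsPP2C30 for 7.

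OsPP2C29 had the largest such difference. It was 351, 330 and 326 in the C418 control and 678, 1128 and 1330 at 2 h. Arrays of K354 gave 376, 424 and 347 in the control and 204, 234 and 261 at 2 h. It rose in C418 by 1.59 (SE 0.21, adjusted p = 1.67e-06) and fell in K354 by 0.72 (SE 0.21, adjusted p = 0.0125), with no overlap in either line, and the interaction was -2.30 (SE 0.30, adjusted p = 2.92e-05).

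OsPP2C61 did likewise. It was 443, 446 and 448 in the C418 control and 854, 1216 and 1336 at 2 h. In K354 it was 391, 443 and 463 in the control and 268, 265 and 262 at 2 h. C418 arrays went up and K354 arrays went down without overlap, by 1.32 and -0.70 (SE 0.17), with an interaction of -2.03 (SE 0.25, adjusted p = 1.25e-05). The rise did not last: at 6 h OsPP2C61 was below its control in C418 too, by -0.72 (SE 0.17, adjusted p = 0.00273).

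OsPP2C68, a group A gene, was 301, 277 and 294 in the C418 control and 410, 775 and 920 at 2 h. In K354 it was 227, 214 and 328 in the control and 231, 209 and 189 at 2 h. It rose in C418 by 1.19 (SE 0.25, adjusted p = 0.000566) and overlapped its control in K354 (-0.27, adjusted p = 0.455), with an interaction of -1.46 (SE 0.35, adjusted p = 0.0219).

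At 2 h OsPP2C30 was 875, 1347 and 1706 in C418 and 473, 524 and 637 in K354. The former lay above their controls, by 1.29 (SE 0.25, adjusted p = 0.000235), and the latter overlapped theirs, at -0.14 (adjusted p = 0.711), with an interaction of -1.43 (SE 0.35, adjusted p = 0.0253). XB15, OsPP2C35, was then 778, 1401 and 1846 in C418 and 560, 574 and 629 in K354, with an interaction of -1.34 (SE 0.28, adjusted p = 0.00632).

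OsPP2C02, OsPP2C32 and OsPP2C34 rose in both lines at 2 h and less in K354, with interactions of -0.95, -0.74 and -0.84. OsPP2C08 gave 0.31 (adjusted p = 0.125) in C418 and fell by 0.63 (adjusted p = 0.00224) in K354, with an interaction of -0.94 (SE 0.21, adjusted p = 0.013). Replicate 1 of C418 at 2 h was the lowest of its group in OsPP2C02, OsPP2C29, OsPP2C30, OsPP2C32, OsPP2C34, OsPP2C35, OsPP2C61 and OsPP2C68.

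MPK5, 1 of the 15 MAP kinases read, rose at 2 h in C418 by 1.82 (adjusted p = 1.85e-06) and gave -0.12 (adjusted p = 0.753) in K354. A call in 1 line only is not a test of a difference between the lines, and the other MAP kinases are not given at 2 h. By 48 h the members named here had risen in both lines, apart from OsPP2C61 and OsPP2C68.

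**Figure D3:**
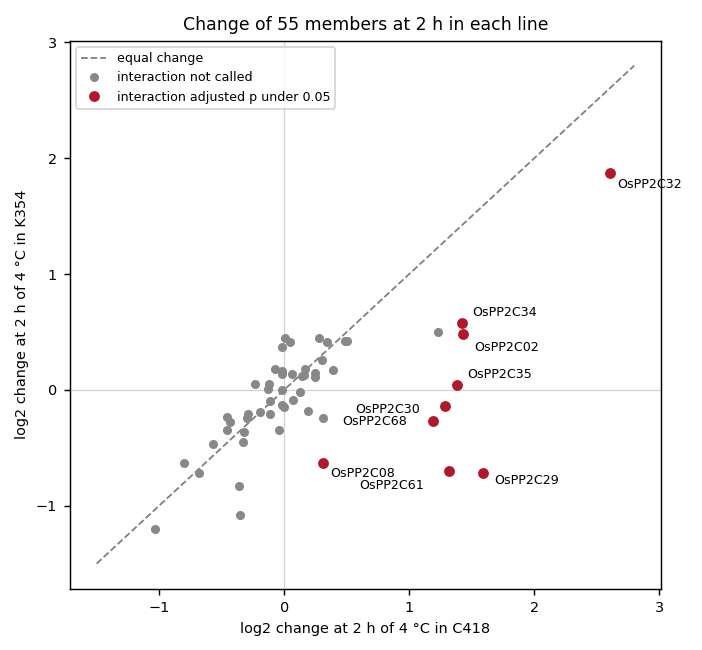
Log2 change at 2 h of 4 °C in C418 (x axis) and in K354 (y axis) for the 55 members, each against the control of its line, with the dashed line at equal change. The 9 members with a called interaction (red) all lie below the line, and OsPP2C29 and OsPP2C61 lie above 0 in C418 and below 0 in K354.

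Later interactions were fewer on the deposited scale. At 6 h 1 member was called, OsPP2C08 at -0.99 (SE 0.21, adjusted p = 0.0238), where 0.464% of all genes were, and it was lost without any 1 of 7 arrays. At 12 h 1 was called (2.55% of all genes), at 24 h 2 (2.01%) and at 48 h 4 (12.1%). The share of members was under that of all genes at 48 h. OsPP2C62 was among them at 12, 24 and 48 h. OsPP2C67 was called at 24 h (0.54) and 48 h (0.78, SE 0.10, adjusted p = 5.85e-06), and OsPP2C05 (0.80, SE 0.15, adjusted p = 0.000898) and OsPP2C60 (0.46, SE 0.14, adjusted p = 0.034) at 48 h, both of which fell less in K354. The calls of OsPP2C60 and of OsPP2C62 at 24 h were lost for 8 and 5 of the 12 arrays.

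OsPP2C62 has a pair of probe sets, and they disagree on the lines. On the first, the brighter by mean log2 intensity, the control was 654, 616 and 627 in C418 and 567, 594 and 572 in K354. The arrays did not overlap, but the difference of -0.13 (SE 0.11) did not pass, with an adjusted p of 0.613. On the second the control was 1364, 1311 and 1381 in C418 and 2.4, 1.91 and 10.98 in K354.

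On that second probe set all K354 groups lay under the 25th percentile of their arrays (26 to 30), so only a bound can be given. With the percentile taken as the level of K354, that line was at least 47.6-fold lower in the control. It was at least 50.9-fold lower at 12 h and at least 26.9-fold lower at 48 h. The limma fit to the values as deposited, not to these bounds, gave an adjusted p of 4.89e-16, 1.91e-17 and 2.48e-16 in that order. This second probe set was the brighter by mean linear intensity, 584.3 against 478.2. Less transcript and an allele that binds these probes less well cannot be told apart here.

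By 48 h the first probe set had fallen in both lines, and further in K354. In C418 it was called neither higher nor lower at 2, 6 or 12 h. At 12 h it was 708, 634 and 644 in C418 and 309, 265 and 320 in K354. At 48 h it was 387, 337 and 360 in C418 and 226, 209 and 169 in K354. The lines did not overlap at either time, and they differed by -1.16 (SE 0.11, adjusted p = 3.02e-09) and -0.85 (SE 0.11, adjusted p = 8.56e-07).

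The change of OsPP2C62 from control to 48 h was -0.81 (SE 0.11, adjusted p = 3.44e-07) in C418 and -1.53 (SE 0.11, adjusted p = 1.60e-12) in K354. The interactions were -1.03 (SE 0.16, adjusted p = 0.000221) at 12 h, -0.67 (adjusted p = 0.0203) at 24 h and -0.72 (adjusted p = 0.00335) at 48 h, and none was called on the second probe set. In C418 that probe set gave -0.83 at 48 h (SE 0.41, adjusted p = 0.0899), close to the first in size. Its C418 arrays did not overlap, at 1364, 1311 and 1381 in the control and 906, 659 and 731 at 48 h. The SE is shared by all 12 groups and so takes in the spread of K354 arrays between 1 and 10.98. A missed call on this probe set, for the change or the interactions, therefore does not show that there was none.

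**Figure D4:**
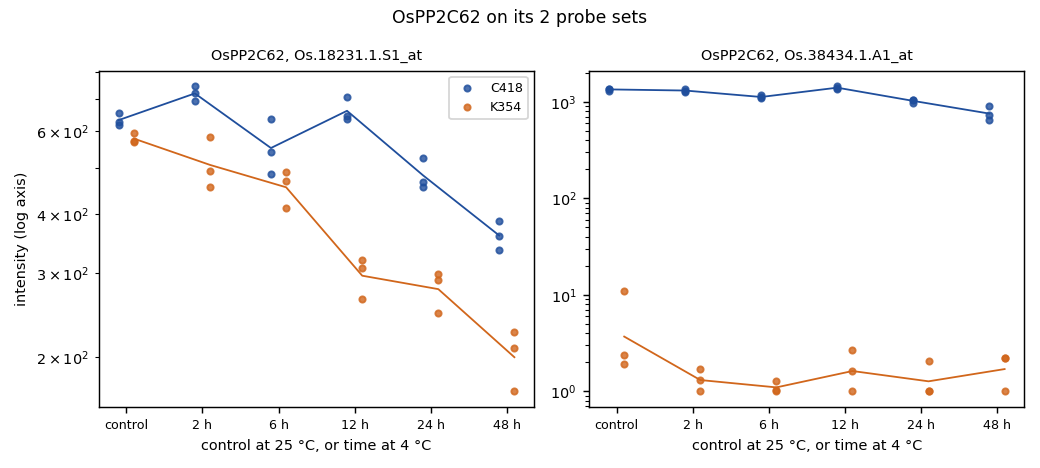
Intensity (log axis, a different range in each panel) of OsPP2C62 on each array, for the first probe set on the left and the second on the right, in C418 (blue) and K354 (orange), with lines through the group means of the logs. The lines are close in the control on the left, while on the right K354 lies between 1 and 10.98 and no C418 array is under 658.7.

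The paper lists a protein phosphatase 2C, Os07g32380, among genes of the donor segment at RM432 on chromosome 7. OsPP2C62 lies on chromosome 7 too, but whether it is that gene was not checked. Genes beside OsPP2C62 were also compared between the lines. Among the 10 measured neighbours on each side, by gene order on assembly ASM3414082v1, 10 of 20 were called in the control, 6 of them higher in K354, where 12.7% of all genes were called. In the cold 9 of 20 were called at 2 h (21.9% of all genes), 11 at 6 h (22.8%), 10 at 12 h (24.2%) and 9 at 24 h (16.1%). At 48 h 7 of 20 were called, close to the 30.8% of all genes. LOC4343322, 5 measured genes before it, was 2.60 higher in K354 in the control (SE 0.27, adjusted p = 1.39e-08), and it was the only one past 5-fold. LOC4343330 and LOC9271299, next to OsPP2C62, gave -0.12 (adjusted p = 0.611) and 0.25 (adjusted p = 0.353).

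Other measured members differed between the lines less than 2-fold in the control. There 7 were called (12.7% of all genes), and in the cold 23 at 2 h (21.9%), 13 at 6 h (22.8%), 15 at 12 h (24.2%), 10 at 24 h (16.1%) and 15 at 48 h (30.8%). The share at 2 h was above that of all genes, with 8 members higher and 15 lower in K354. The paper describes a protein phosphatase 2C in a donor segment of chromosome 12 as highly enriched in K354. OsPP2C77 lies on chromosome 12 and had no probe set here, and which gene the paper meant was not traced. These counts therefore do not cover every member of the family.

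OsPP2C67 and OsPP2C09 were higher and OsPP2C15 lower in K354 in all 6 conditions. OsPP2C67 was 336, 327 and 333 in the C418 control and 607, 628 and 631 in K354, a difference of 0.91 (SE 0.07, adjusted p = 3.57e-11). At 48 h it was 336, 301 and 334 in C418 and 1020, 1072 and 1020 in K354, a difference of 1.68 (SE 0.07, adjusted p = 1.86e-17). From control to 48 h it gave -0.04 (adjusted p = 0.675) in C418 and rose by 0.74 (SE 0.07, adjusted p = 5.15e-10) in K354, where it fell on the scale of the poly-A controls.

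OsPP2C09, of group A, was 999, 1000 and 917 in the C418 control and 1389, 1396 and 1332 in K354, a difference of 0.50 (SE 0.16, adjusted p = 0.04). OsPP2C15 was 507, 494 and 502 in C418 and 299, 280 and 278 in K354, a difference of -0.81 (SE 0.13, adjusted p = 3.94e-05). Neither overlapped. OsPP2C06 was higher in K354 by 0.62 (SE 0.14, adjusted p = 0.00211) in the control, OsPP2C48 by 0.85 (SE 0.14, adjusted p = 8.72e-05) and OsPP2C75 by 0.48 (SE 0.11, adjusted p = 0.00383).

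**Figure D5:**
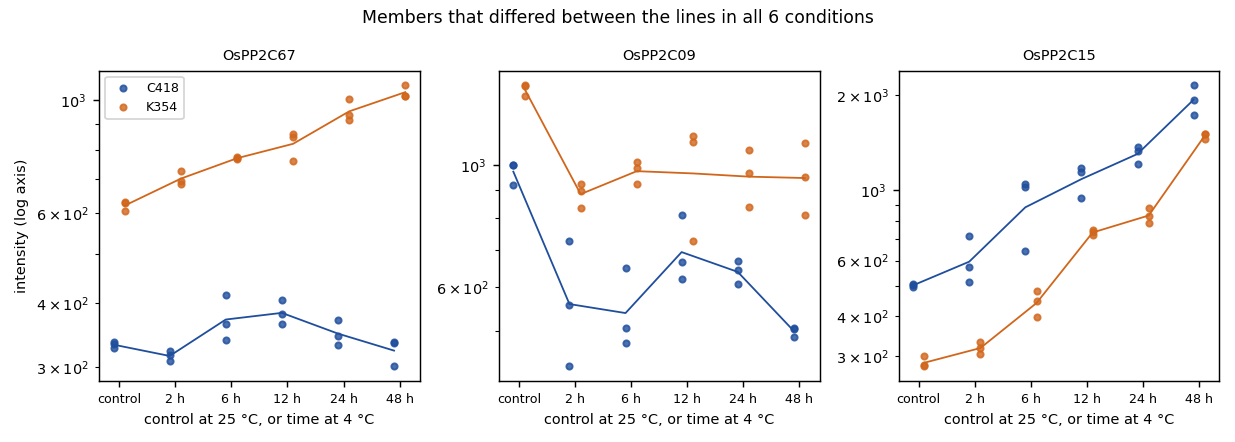
Intensity (log axis) of OsPP2C67, OsPP2C09 and OsPP2C15 on each array in C418 (blue) and K354 (orange), in the control and at each time at 4 °C, with lines through the group means of the logs. OsPP2C67 climbs to 1020 to 1072 at 48 h in K354 against 301 to 336 in C418, OsPP2C09 is higher in K354, and OsPP2C15 rises in both lines from a lower level in K354.

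Of the members, 12 had more than 1 probe set. At 48 h OsPP2C39 and OsPP2C73 had calls in opposite directions in both lines, and OsPP2C45, OsPP2C48 and OsPP2C75 in K354. The brightest probe set of OsPP2C39 gave -0.76 (SE 0.13) in C418 and its other 0.88 (SE 0.14), so its direction depends on the probe set.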

How the data were processed

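The authors deposited 1 table of probe set intensities on a linear scale for 36 Affymetrix arrays. Their methods name dChip invariant-set normalization and the sample records MAS5; which set the scale is not known. The lowest value is 1. Of 57381 probe sets, 123 array controls were set apart. The intensities were log2 transformed here and fitted with limma 3.58.1 in R 4.3.3 as 1 model of 12 groups, with Benjamini-Hochberg adjustment over 57258 probe sets. The study's methods name SAM for these comparisons, which was not run here. The number of arrays, 3 a group, limits the precision. The labels number 3 replicates a group, and the paper's methods call them biological, each taken from its own pot.

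A group under the 25th percentile on all 3 arrays gives only a bound. Named members are OsPP2C62, those past 5-fold, group A, called interactions and the extremes of change and level; others were chosen after their values were seen. Members and lists were chosen with earlier results of these data known. Names and gene order come from RefSeq (ASM3414082v1), which named 17905 genes with a probe set. On simulated data for C418 at 48 h over 57258 probe sets, the fit called 86 of 100 changed 2-fold, 100 of 100 changed 6-fold and 8 of 57058 unchanged. The simulation drew independent noise and changed few probe sets, so these rates need not carry over to the measured arrays. Alternatives were other scalings, filters, floors, tests, probe set rules, a replicate block and leaving out each array. Figures were made with python 3.11.15 and matplotlib 3.10.9.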

Additional observations from a re-analysis of the deposited data

Results flagged for a closer look

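The cold response, K354 minus C418, differed by the test of the interaction for 17 pairs of member and time. At 2 h it was -2.30 for OsPP2C29, -2.03 for OsPP2C61, -1.46 for OsPP2C68, -1.43 for OsPP2C30, -1.34 for OsPP2C35, -0.95 for OsPP2C02, -0.94 for OsPP2C08, -0.84 for OsPP2C34 and -0.74 for OsPP2C32. OsPP2C08 was also called at 6 h, at -0.99. OsPP2C62 was called at 12 h (-1.03), 24 h (-0.67) and 48 h (-0.72) on 1 of its probe sets. OsPP2C67 was called at 24 h (0.54) and 48 h (0.78), and OsPP2C05 (0.80) and OsPP2C60 (0.46) at 48 h. With 3 arrays a group, no test for outlying arrays was made.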

How the results depend on the processing

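Called changes of 7 named members turned sign on a control scale, and that of OsPP2C14 in K354 at 2 h with averaged probe sets (-0.00113). On the hybridization controls OsPP2C10 (-0.0780), OsPP2C53 (-0.001225) and OsPP2C67 (-0.0393) turned in C418 at 12 h, OsPP2C70 (-0.60) in C418 at 48 h, and OsPP2C52 (-0.45) and OsPP2C53 (-0.39) in K354 at 48 h. On the poly-A controls OsPP2C53 (-0.14) turned in C418 at 6 h, OsPP2C10 (-0.40), OsPP2C53 (-0.32) and OsPP2C67 (-0.36) in C418 at 12 h, OsPP2C08 (-0.37) and OsPP2C70 (-1.09) in C418 at 48 h, OsPP2C10 (-0.0281) in K354 at 6 h, OsPP2C53 (-0.0666) and OsPP2C67 (-0.0709) in K354 at 12 h, OsPP2C67 (-0.11) in K354 at 24 h, and OsPP2C08 (-0.47), OsPP2C52 (-0.99), OsPP2C53 (-0.92), OsPP2C67 (-0.46) and OsPP2C69 (-0.16) in K354 at 48 h. With a 2-fold minimum the called members, from the earliest to the latest time, numbered 10, 8, 10, 20 and 22 in C418 and 3, 5, 12, 18 and 21 in K354; the line differences numbered 0 in the control and 6, 2, 2, 1 and 1 in the cold, and the interactions 5 at 2 h and 0 at 6, 24 and 48 h. With a 5-fold minimum they numbered 1, 1, 2, 4 and 8 in C418, 0, 1, 2, 3 and 7 in K354, and 0 for line differences and interactions at all times. A plain t-test gave 36 members in K354 at 2 h and 17 between lines in the control unadjusted, with OsPP2C62 called at -0.13 there; adjusted, it gave 12 in C418 at 6 h and 13, 6, 7, 2 and 3 between lines over the cold times in order. It was not run for interactions. Fitting only the groups compared gave 8, 4 and 6 line differences at 6, 24 and 48 h and 2 interactions at 12 h.

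Scaled to the hybridization controls, 6 members differed between lines at 24 h, and interactions numbered 0, 1 and 9 at 6, 24 and 48 h. Scaled to the poly-A controls, line differences numbered 4 in the control and 9 at 48 h, and interactions 3, 0, 1 and 2 at 2, 6, 24 and 48 h. A filter on dim probe sets gave 4 and 7 interactions at 24 and 48 h, and a floor at the 25th percentile 7 at 48 h. Averaging probe sets gave 1 and 10 interactions at 24 and 48 h and -4.32 for OsPP2C62 in the control. Chosen after seeing the data, the brightest probe set by linear mean gave 0 and 1 at 12 and 24 h, and the second probe set of OsPP2C62 gave -8.52, a fitted value and no bound. The cause of these shifts was not tested.

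Leaving out 1 array at a time, the line differences at 6 h numbered 7 to 14 (7 without K354 6 h replicate 2), and the interactions, in order of time, 4 to 9, 0 to 3, 1 to 3, 1 to 4 and 3 to 7. The 3 at 12 h came without K354 12 h replicate 1, the 4 at 24 h without K354 24 h replicate 2, and the 7 at 48 h without K354 48 h replicate 3. Same-numbered arrays did not deviate together on average (mean residual correlation of 0.00287, from -0.50 to 0.34). That mean cannot exclude a pairing between particular groups, and the samples were fitted as unpaired. With a replicate block, C418 had 44 called members at 48 h, K354 had 46, and there were 9 interactions at 2 h.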
